A study of Mus musculus with 6 samples.

Results

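The genes described here are 9 genes that mark resting T cells and their traffic through lymph nodes: Klf2, Klf3, Ccr7, S1pr1, Il7r, Il6ra, Foxo1, Foxp1 and Pecam1. They were taken by name, in any case or as an older synonym, from the table of bead array signals, with every probe that carries the name. This gave 18 probes for 9 of the 28902 genes of the table. Of these probes 15 were detected in at least 1 library, and they covered 8 of the 9 genes. Klf2, Klf3, Ccr7 and S1pr1 had 1 probe each.

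A resting T cell is kept quiet and mobile by transcription factors of the FOXO, FOXP and KLF families. FOXO1 stays in the nucleus while the PI3K and AKT kinases are idle, and there it switches on KLF2, CCR7 and IL-7 receptor. CCR7 brings the cell into lymph nodes, S1PR1 lets it out along a sphingosine 1-phosphate gradient, and the IL-7 receptor keeps it alive. Antigen turns much of this programme off, and memory cells can regain part of it.

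RNA was measured in CD4+ T cells of mice of the strain labelled RAG1- BW TRP-1 TCR, which carry a transgenic T cell receptor for the melanocyte protein TRP-1. All libraries share this strain and the age of 6 weeks. The naive library was taken before activation (day 0), and the Th17 libraries, of helper cells named for interleukin 17, on days 2, 4, 7, 12 and 18 after the cells were activated with TRP-1 peptide. No sort, gate or pooling of animals is given in the labels. Each time point had 1 library, so no difference below has a replicate check, an SD or a p-value.

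Signals were background-corrected and quantile-normalized, and levels are given as log2 normalized signal. A probe counts as detected at a detection p below 0.01. "Higher" and "lower" mean that the brighter library detected the gene and the signals differed at least 2-fold. If the dimmer array failed to detect the gene, its signal was replaced by the lowest detected signal there (4.88 to 4.97 on the log2 scale) unless its own was higher, and such folds are written as "at least". A gene with several probes is represented by the brightest. As a yardstick, the differences from day 0 of a pair of probes of the same gene disagreed with an SD of 0.39 to 0.43 log2 units over 2398 genes. That yardstick describes probes on the same arrays and not the spread between animals or cultures.

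The arrays were alike in depth, with 13687 to 14258 of 45281 probes detected and median signals before correction of 87.2 to 93.4. All 13 measured T cell identity genes were detected in all 6 libraries, and their mean level was higher than at day 0 by 0.40 at day 2 and by 1.14 or more on the later days, most of all at day 7. Markers of other cell types differed between the libraries. The day 0 library detected 12 of 13 erythroid markers with a summed normalized signal of 64398.9, against 23105.4 at day 2 and 147.4 to 1057.7 later. It also detected 7 of 9 endothelial markers with a sum of 1548.5, against 104.5 to 388.3 on the activated days. Macrophage markers summed to 5473.0 at day 0 and 5709.2 at day 2, and to 92.6 to 1976.3 afterwards. They were not uniform at day 2, when Cd14, Lyz2 and Marco were higher than at day 0 and Csf1r, C1qa, C1qb, C1qc and Mrc1 lower. Neutrophil markers had their highest sum, 31615.1, at day 2 and were undetected at day 18 (0 of 11). The NK and CD8 T cell markers summed to 5889.4 at day 0 and 1693.7 at day 2, and were highest at day 12 (10715.8) and day 18 (14313.7). Nkg7 and Eomes were higher than at day 0 on days 12 and 18, and Klrd1 at day 18. Klrb1c was lower on every activated day, and Cd8a and Ncr1 were detected in no library. The mast cell and basophil sum peaked at day 7 (6547.1). Cpa3, Ms4a2 and Fcer1a were higher then than at day 0, while Kit, Gata2 and Prss34 were lower on every activated day. The part of these cells in the results was not tested. B cell markers stayed between 62.2 and 220.2, and Ms4a1, Pax5 and Cd22 were detected in no library. In bulk RNA, fewer cells of a type and less RNA per cell cannot be told apart, and every comparison with day 0 shares this library.

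**Figure D1:**
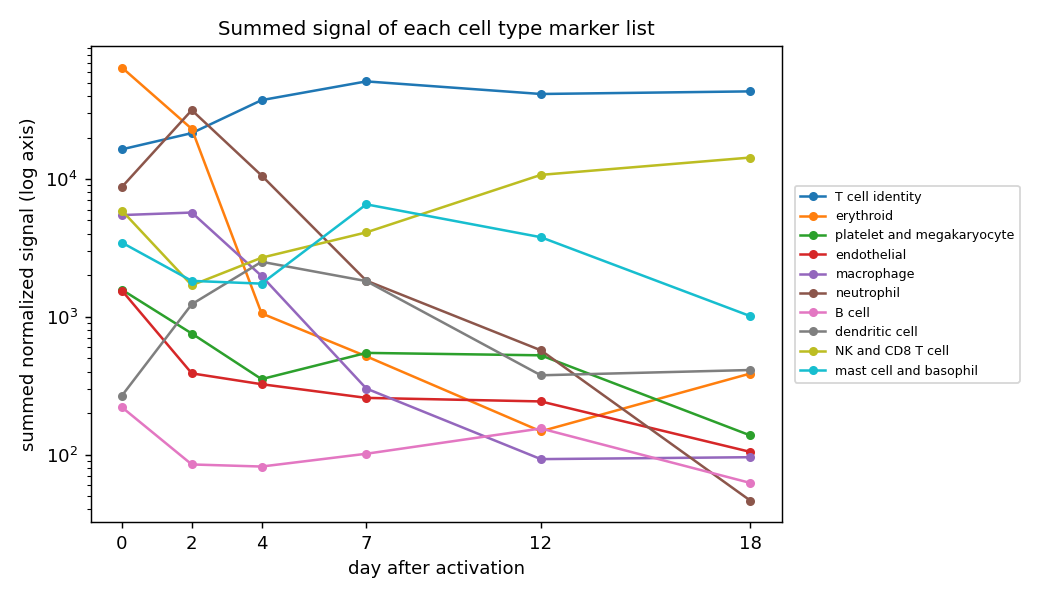
Summed normalized signal (log axis) of the markers of each of 10 cell types against the day after activation, 1 library per point. The erythroid sum is 64398.9 at day 0 and 387.2 at day 18, while the T cell identity sum is 16424.7 and 43268.0.

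The 8 detected genes did not move as a block. Klf2 and Il6ra were lower than at day 0 on every activated day, which is 2 of the 8, beside 4.05% of the 11954 genes detected in at least 1 library. None of the 8 was higher on every activated day, beside 1.96% of all genes. At day 2, 3 genes were lower (Klf2, Il7r and Il6ra), beside 8.97% of all genes, and 2 were higher (Ccr7 and Foxo1), beside 7.47%. By day 4 Il7r had left the lower group and Foxp1 had joined it, giving 3 lower genes beside 9.44% of all genes. Foxo1 was the 1 higher gene then, beside 8.1%.

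From day 7 on no member was higher than at day 0. At day 7 the same 3 genes as at day 4 were lower, beside 9.35% of all genes, with 8.88% of all genes higher. At day 12 Klf2 and Il6ra alone were lower, beside 7.75% of all genes, with 7.19% higher, and at day 18 again these 2, beside 8.69%, with 7.93% higher. The median log2 difference of the 8 genes from day 0 was -0.94, -1.04, -0.36, -0.39 and -0.37 on days 2, 4, 7, 12 and 18. Over all genes it was between -0.01 and 0.03. With undetected members at their bound the medians were -0.63, -0.75, -0.02, -0.33 and -0.31 in the same order.

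**Figure D2:**
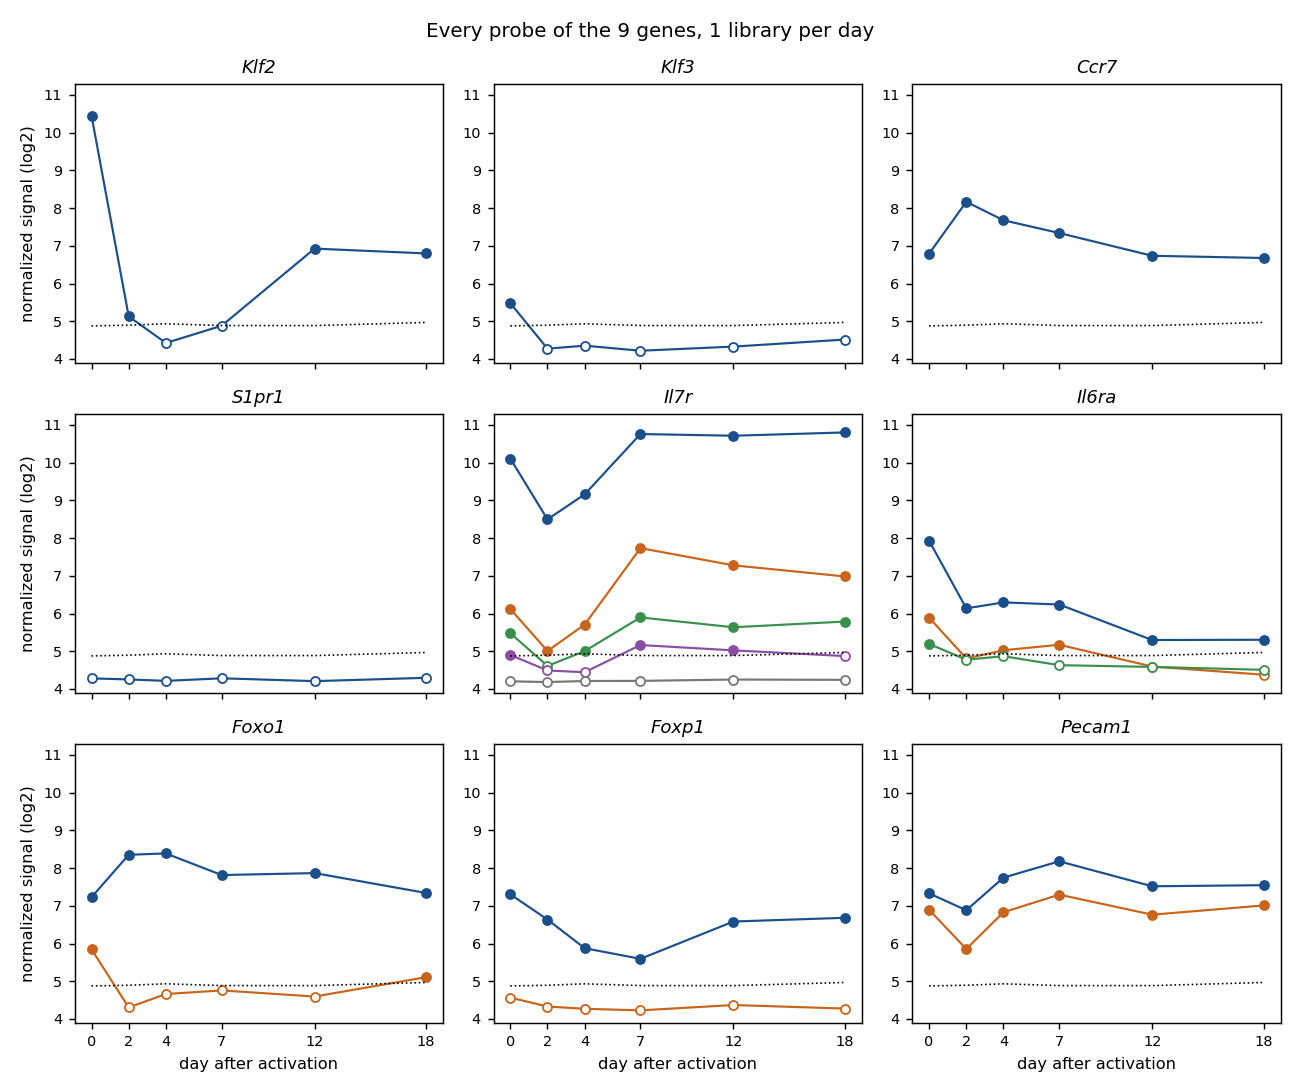
Log2 normalized signal of each probe of the 9 genes against the day after activation, 1 panel per gene and 1 colour per probe. Filled points are detected, hollow points are not, and the dotted line is the lowest detected signal of each array; Klf2 goes from 10.45 at day 0 to 4.42 at day 4 and 6.80 at day 18.

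The promoters of the pair that was lower on every activated day and of Il7r, which was lower at day 2 alone, are shown so that their sequences can be compared. Each runs from 250 bases before the transcription start to 50 after it, as given by RefSeq for GRCm38.p6. Klf2 lies at chr8:72318812-72319111 (plus strand), Il6ra at chr3:89913147-89913446 (minus strand) and Il7r at chr15:9529827-9530126 (minus strand). Capitals mark matches, on either strand, to CCNCNCCC, a motif of the GC-box kind that KLF proteins bind.
Klf2: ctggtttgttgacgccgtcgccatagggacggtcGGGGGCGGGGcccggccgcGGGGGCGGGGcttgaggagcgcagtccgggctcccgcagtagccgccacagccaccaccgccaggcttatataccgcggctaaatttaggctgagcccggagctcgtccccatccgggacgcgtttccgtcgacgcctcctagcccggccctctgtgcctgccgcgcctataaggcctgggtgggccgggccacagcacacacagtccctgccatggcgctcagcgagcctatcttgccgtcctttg
Il6ra: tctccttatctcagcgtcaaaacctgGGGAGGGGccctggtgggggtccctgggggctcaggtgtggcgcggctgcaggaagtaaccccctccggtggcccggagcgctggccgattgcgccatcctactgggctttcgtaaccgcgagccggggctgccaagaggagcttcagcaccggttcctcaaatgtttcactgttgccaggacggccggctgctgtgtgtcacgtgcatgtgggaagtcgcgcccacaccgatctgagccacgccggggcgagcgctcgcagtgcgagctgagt
Il7r: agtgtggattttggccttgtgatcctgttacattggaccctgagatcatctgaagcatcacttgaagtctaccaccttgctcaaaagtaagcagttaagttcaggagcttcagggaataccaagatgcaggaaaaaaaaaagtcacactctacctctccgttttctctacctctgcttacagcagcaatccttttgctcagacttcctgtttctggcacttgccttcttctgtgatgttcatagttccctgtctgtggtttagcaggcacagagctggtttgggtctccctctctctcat
The Klf2 window held 4 matches, which overlap in 2 pairs, the Il6ra window held 1, and the Il7r window none. The RefSeq table gave 8 promoters for 6 of the 9 genes (Klf2, Klf3, Il7r, Il6ra, Foxo1 and Foxp1), and 6 of the 8 held this motif, beside 49.5% of 32851 mouse promoters. The forkhead motif GTAAACA, searched on both strands, was in 0 of the 8 windows, beside 3.65% of all promoters. A match is only a run of letters, and nothing follows from its absence in so short a window.

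Among the transcription factors, Klf2 showed the widest range of the 9 genes. KLF2 is the zinc finger factor that keeps T cells quiescent and switches on S1pr1. Its gene lies at chr8:72319062-72321654 in GRCm38.p6. The signal of its probe before correction was 1599.0 in the naive library and 103.3, 93.5, 104.7, 194.2 and 150.6 on days 2, 4, 7, 12 and 18. The log2 normalized signal was 10.45 in the naive library, then 5.13, 4.42, 4.88, 6.93 and 6.80. The naive library stood far above all others, days 4 and 7 were not detected (detection p 0.169 and 0.0118), and days 12 and 18 lay between. Klf2 was therefore 40.0-fold lower at day 2 and at least 45.8-fold and at least 47.3-fold lower on days 4 and 7, but 11.5-fold and 12.6-fold lower on days 12 and 18. From day 7 to day 12 it was at least 4.11-fold higher, and at day 18 it was 3.18-fold higher than at day 2. Its range over the 6 libraries, 6.03 log2 units, was at the 99.5th percentile of all genes detected in at least 1 library. The endothelium also makes KLF2, and the endothelial and erythroid marker sums were highest in the same day 0 library; their part in the Klf2 level was not tested. Without background correction the Klf2 difference at day 4 was -3.98 log2 units in place of -6.03.

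The profile most like that of Klf2, after each gene's own mean was subtracted, belonged to Frat2, with a root mean square difference of 0.32 log2 units over the 6 libraries among 10037 genes. Frat2 was at 9.91, 4.93, 4.64, 4.91, 6.20 and 6.54 from day 0 to day 18. Acss1 (0.51) and Epdr1 (0.59) were the next. These distances describe 6 libraries and carry no test.

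Klf3 encodes a repressor of the same zinc finger family. Its probe was detected in the naive library alone, at 5.48, and lay at 4.22 to 4.51 in the 5 activated libraries, below the detection limit. The bound for a lower level was at least 1.43-fold to at least 1.51-fold, so Klf3 did not reach the 2-fold limit on any day, and a larger difference was not detectable at this signal. Dntt (0.042), Ap1b1 (0.050) and Ptrh2 (0.051) had the nearest profiles. Because 5 of the 6 Klf3 values are below detection, these distances carry no meaning.

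Foxo1 encodes the forkhead factor at the head of this programme. Its brighter probe was at 7.23 in the naive library and 8.35, 8.39, 7.82, 7.87 and 7.34 on days 2, 4, 7, 12 and 18. The naive and day 18 libraries were the lowest, and days 2 and 4 the highest. On this probe Foxo1 was 2.18-fold higher at day 2 and 2.24-fold higher at day 4, and 2.02-fold lower at day 18 than at day 2. The other probe went the opposite way. It was detected at day 0 (5.85) and day 18 (5.11) and was below detection between, at 4.31 to 4.76. This puts it at least 1.9-fold below day 0 at days 2 and 4 and at least 1.95-fold below at days 7 and 12. At day 18 it was 1.67-fold below, and all of these are under the limit. The mean of both probes gave a Foxo1 difference of -0.21 at day 2 and -0.01 at day 4, so the direction for this gene depends on the probe. The transcripts that each probe reads were not looked up here. FOXO1 is controlled mainly through its phosphorylation and place in the cell, which RNA does not show. Eif5a (0.10), Anapc15 (0.10) and Nfkb1 (0.10) had the profiles nearest to the brighter probe.

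Foxp1 encodes a forkhead factor that in mice holds naive T cells in quiescence and represses Il7r. Its detected probe was at 7.31 in the naive library and 6.64, 5.88, 5.60, 6.58 and 6.68 on days 2, 4, 7, 12 and 18. Day 0 was the highest and day 7 the lowest library. Foxp1 was 2.69-fold lower at day 4 and 3.27-fold lower at day 7, while on days 2, 12 and 18 it was 1.54-fold to 1.65-fold below day 0, under the limit. Without background correction the day 4 and day 7 differences, -0.81 and -0.93, were under the limit too. From day 7 to day 12 it stood 1.99-fold apart, just under the limit. Its second probe was detected in no library, at 4.23 to 4.57. Zfp420 (0.13), Ptpn12 (0.14) and Atxn7l3b (0.15) were nearest in profile.

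Ccr7 encodes the receptor for CCL19 and CCL21, the chemokines that draw naive and central memory T cells into lymph nodes. The signal before correction was 212.1 in the naive library and 337.2, 289.1, 245.5, 180.1 and 144.9 on days 2, 4, 7, 12 and 18. On the log2 scale the levels were 6.79, 8.17, 7.68, 7.34, 6.74 and 6.68. Day 2 was the highest library, and days 0, 12 and 18 lay within 0.12 log2 units of each other, less than the probe yardstick. Ccr7 was 2.59-fold higher at day 2 than at day 0 and 2.81-fold lower at day 18 than at day 2. When arrays were scaled on the T cell identity genes in place of quantiles, the day 2 difference was 0.79, under the limit, and on days 7, 12 and 18 Ccr7 was lower than at day 0 by 1.12, 1.45 and 1.46 log2 units. Dendritic cells also carry CCR7. Their marker sum was 267.8 at day 0, 1233.3 at day 2 and 2506.9 at day 4, but 1 of their 8 markers, Batf3, was the only one detected on each activated day. Batf3 was higher than at day 0 on every activated day, whereas Zbtb46 and Siglech were lower on every activated day. Itgax, Flt3, Xcr1 and Cd209a were detected in no library. Activated T cells also express Batf3, and its part in the Ccr7 level was not tested. Stip1 (0.12), Jmjd6 (0.12) and Alcam (0.13) had the nearest profiles to Ccr7. Among the members, Ccr7 and the brighter Foxo1 probe were the closest pair, 0.29 apart.

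S1pr1 encodes the sphingosine 1-phosphate receptor through which T cells leave lymph nodes, and it is a target of KLF2. Its 1 probe was not detected in any library, naive cells included, with signals before correction of 84.9 to 89.7, detection p of 0.411 to 0.816 and log2 levels of 4.21 to 4.30. These signals lie near the array medians. No direction can be given for S1pr1, and a change below the detection limit was not detectable with this probe.

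Il7r encodes the IL-7 receptor alpha chain, the survival receptor of naive and memory T cells. Its brightest probe had signals before correction of 1305.5 in the naive library and 408.9, 703.1, 1961.6, 1751.4 and 1400.5 on days 2, 4, 7, 12 and 18. The log2 levels were 10.11, 8.50, 9.16, 10.76, 10.71 and 10.80. Day 2 was the lowest library, day 4 the next, and days 7, 12 and 18 lay within 0.09 log2 units of each other above day 0. Il7r was 3.06-fold lower at day 2 and 1.93-fold below day 0 at day 4. It was 3.03-fold higher at day 7 than at day 4, and 4.95-fold higher at day 18 than at day 2. Its levels on days 7, 12 and 18 were 1.52-fold to 1.61-fold above day 0, under the limit.

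Of its 5 probes 4 were detected somewhere, and all 4 had their lowest or next to lowest value at day 2. The second probe, at 6.12, 5.01, 5.71, 7.73, 7.28 and 6.98, was 2.17-fold lower at day 2 and, unlike the brightest, 3.06-fold higher at day 7 and 2.23-fold higher at day 12 than at day 0. The next pair of probes peaked at day 7, at 5.90 and 5.16. Scaled on T cell identity genes, the brightest probe was below day 0 throughout, by 2.01 log2 units at day 2 and 0.81, 0.62 and 0.48 at days 7, 12 and 18, so whether the late level lay above the naive one depends on the scaling. Jakmip1 had the nearest profile (0.084), at 9.03, 7.41, 8.26, 9.74, 9.73 and 9.64, followed by Ifi27 (0.13) and Nqo2 (0.17).

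Il6ra encodes the IL-6 receptor alpha chain, through which IL-6 steers naive CD4+ T cells towards the Th17 fate. The signals before correction were 371.5 in the naive library and 135.6, 153.7, 153.8, 113.0 and 101.1 on days 2, 4, 7, 12 and 18. Its brightest probe was at 7.93, 6.14, 6.29, 6.24, 5.30 and 5.30 on the log2 scale. The naive library was highest, days 2, 4 and 7 formed a middle level, and days 12 and 18 were lowest. The gene was 3.47-fold, 3.11-fold and 3.23-fold lower on days 2, 4 and 7, and 6.21-fold and 6.18-fold lower on days 12 and 18. The second probe, detected at days 0, 4 and 7, was at least 2.01-fold lower at day 12 and 1.82-fold and 1.65-fold below day 0 at days 4 and 7. The third was detected at day 0 alone, at 5.19, close to the detection limit. With the mean of the 3 probes, Il6ra differed by -0.94 at day 4 and -0.99 at day 7, just under the limit. Macrophages and neutrophils also carry this receptor, and the macrophage sum was low from day 7 on while the neutrophil sum peaked at day 2; their part was not tested. Naprt (0.15), Vcl (0.18) and Acsl1 (0.20) were nearest in profile.

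Pecam1 encodes CD31, an adhesion receptor with inhibitory motifs that is found on naive T cells and, at high levels, on endothelium, platelets and neutrophils. The first probe was at 7.33 in the naive library and 6.88, 7.75, 8.18, 7.52 and 7.55 on days 2, 4, 7, 12 and 18. The second was at 6.89, 5.86, 6.83, 7.30, 6.77 and 7.01. Both were lowest at day 2 and highest at day 7. The first probe did not reach the 2-fold limit on any day, with 1.80-fold above day 0 at day 7 as its largest difference. The second was 2.06-fold lower at day 2 than at day 0 and 2.23-fold higher at day 18 than at day 2. The endothelial and platelet marker sums were highest at day 0 (1548.5 and 1570.2) and lowest at day 18 (104.5 and 137.6), and the neutrophil sum was highest at day 2 (31615.1); the part of these cells in the Pecam1 level was not tested. Scaled on T cell identity genes, the first probe was below day 0 on all 5 days, by 0.79 to 1.19 log2 units. Uvrag (0.12), Flot1 (0.13) and Rad52 (0.13) had the nearest profiles.

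**Figure D3:**
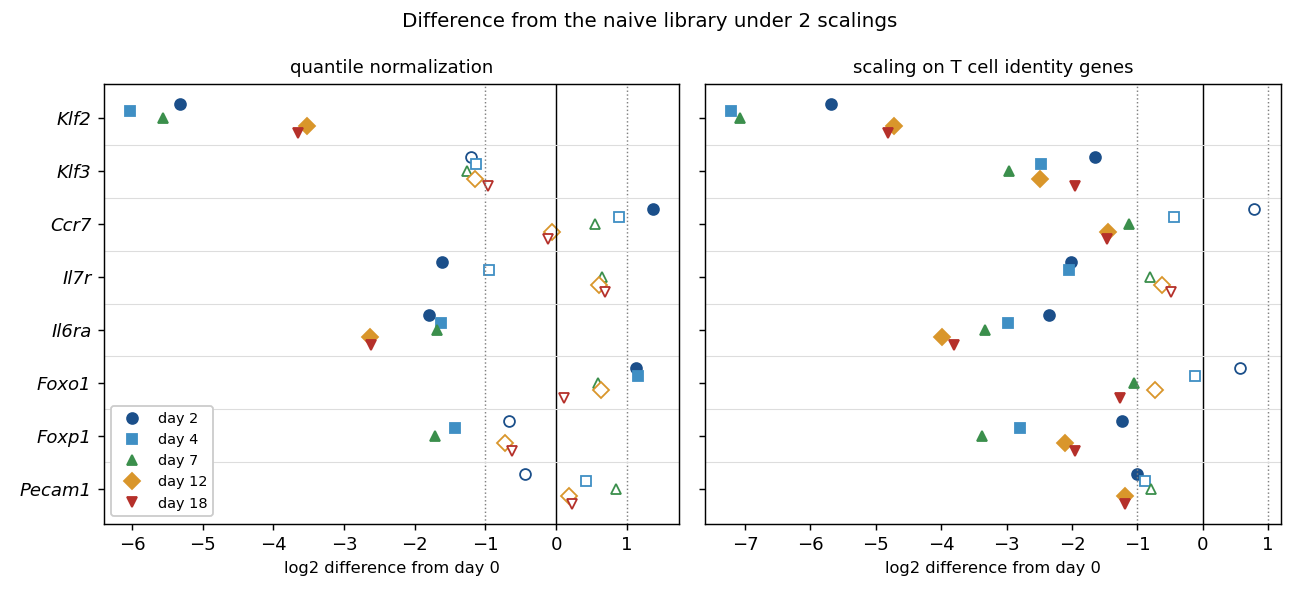
Log2 difference from day 0 of the 8 detected genes on each activated day, with quantile normalization (left) and with arrays scaled on 13 T cell identity genes (right). Filled symbols reached the 2-fold limit (dotted lines) under the rule for undetected signals; Klf2 and Il6ra are filled on all 5 days in both panels, and Ccr7 at day 2 is 1.37 on the left and 0.79 on the right.

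Between successive activated libraries few members differed. From day 2 to day 4 no member was lower or higher, beside 2.28% and 1.91% of all genes. From day 4 to day 7 none was lower, beside 2.43%, and Il7r was higher, beside 2.53%. From day 7 to day 12 none was lower, beside 2.9%, and Klf2 was higher, beside 2.28%. From day 12 to day 18 none was lower or higher, beside 2.27% and 1.31%. Across the activated time course, day 18 against day 2, Ccr7 and Foxo1 were lower, beside 7.95% of all genes, and Klf2 and Il7r were higher, beside 8.9%. Of the 8 genes 4 therefore differed between these libraries, and Klf2 and Il6ra both remained lower than at day 0.

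Related genes were counted in 11 lists that exclude the members and hold 157 genes, 9 of them in more than 1 list. The counts below use the same 2-fold rule, and the percentages for all genes are those given above for the same days. None of 10 reference genes was higher or lower than at day 0 on any activated day. When arrays were scaled on T cell identity genes, however, all 10 were lower at day 7, as were 69.8% of all genes under that scaling, and no lower call in these lists was lost, whereas many higher calls were. Lower calls in the lists were also kept under median and reference gene scaling. Of genes named below, both lost higher calls of Itgal, Socs1 and Ptpn2 at day 2, Bcl2 at day 4 and Slfn1 at day 7. They also lost those of Jak3 at day 12, and of Itgb7, Cxcr3, Pik3cd and Pik3ip1 at day 18. Median scaling alone also lost those of Klf7 at days 12 and 18, Jak3 at days 2 and 18 and Socs1 at day 18. All 3 scalings gave a negative median difference of all genes on every activated day. This favours lower calls by construction, so keeping them is no sign of stability.

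The naive and quiescence list had 23 detected genes, of which 7 were lower and 4 higher at day 2, 8 and 5 at day 4, 6 and 5 at day 7, 4 and 3 at day 12, and 4 and 4 at day 18. Rgs10, a regulator of G protein signalling, was 2.15-fold to 2.55-fold lower on all 5 days. Dapl1, a marker of naive T cells in mice, was detected at day 0 alone and was at least 2.03-fold to at least 2.15-fold lower. Slfn1, a quiescence gene of the Schlafen family, was 2.25-fold lower at day 2 and 2.98-fold lower at day 4, then 2.00-fold, 4.35-fold and 4.84-fold higher at days 7, 12 and 18, although with T cell identity scaling the day 7 difference turned to -0.59 and the later ones, 0.76 and 0.93, were under the limit.

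In the list of lymph node entry and motility, with 12 detected genes, 3 were lower and 1 higher at day 2, 1 and 2 at day 4, 1 and 3 at day 7, 1 and 2 at day 12, and 2 and 3 at day 18. Itgal, the alpha chain of the integrin LFA-1, was higher on all 5 days by 2.14-fold to 5.03-fold, but by 0.51 to 0.73 log2 units, under the limit, with T cell identity scaling. Itgb7, the integrin chain used for homing to gut, was 3.81-fold lower at day 2 and 2.00-fold to 2.28-fold higher at days 7, 12 and 18, where T cell identity scaling turned the sign (-0.38, -0.04 and -0.12). Cxcr4, the receptor for CXCL12, was 2.52-fold higher at day 4 and 2.96-fold higher at day 7, then 5.59-fold lower at day 18, and with T cell identity scaling the higher values became 0.09 and -0.05.

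Around S1pr1, the sphingosine 1-phosphate list had 11 detected genes, with 3, 2, 3, 3 and 3 lower and 0, 1, 2, 1 and 3 higher from day 2 to day 18. Sphk1, a kinase that makes sphingosine 1-phosphate, was at 11.36, 7.83, 7.39, 5.65, 4.26 and 4.30, from 11.5-fold lower at day 2 to at least 88.7-fold lower at day 12. Red cell precursors also make sphingosine 1-phosphate, and the erythroid marker sum was also lower on these days; its part was not tested. Plpp3, a phosphatase that degrades it, was 2.97-fold lower at day 2 and at least 7.12-fold lower at day 18. S1pr5, a receptor best known in natural killer cells, was at least 2.00-fold lower on days 2, 7, 12 and 18. Cd69, which pulls S1PR1 from the cell surface, was 2.58-fold, 4.75-fold, 2.79-fold and 4.18-fold higher from day 4 to day 18, and 0.19 to 0.84 log2 units above day 0, under the limit, with T cell identity scaling.

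The inflammatory homing receptors, 8 of them detected, had 1, 2, 3, 2 and 2 lower and 2, 2, 2, 4 and 4 higher members from day 2 to day 18. Ccr6, the chemokine receptor typical of Th17 cells, was at 8.97, 10.34, 9.01, 6.58, 4.36 and 4.25. It was 2.59-fold higher at day 2, a difference of 0.94, under the limit, with T cell identity scaling, and then 5.23-fold, at least 17.0-fold and at least 16.03-fold lower at days 7, 12 and 18. Cxcr3, a receptor of Th1 cells, was 2.54-fold and 4.59-fold lower at days 4 and 7, then 2.76-fold and 2.42-fold higher at days 12 and 18, where T cell identity scaling gave 0.10 and -0.13. Cx3cr1, a receptor that monocytes also carry, was at least 3.29-fold lower on all 5 days.

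**Figure D4:**
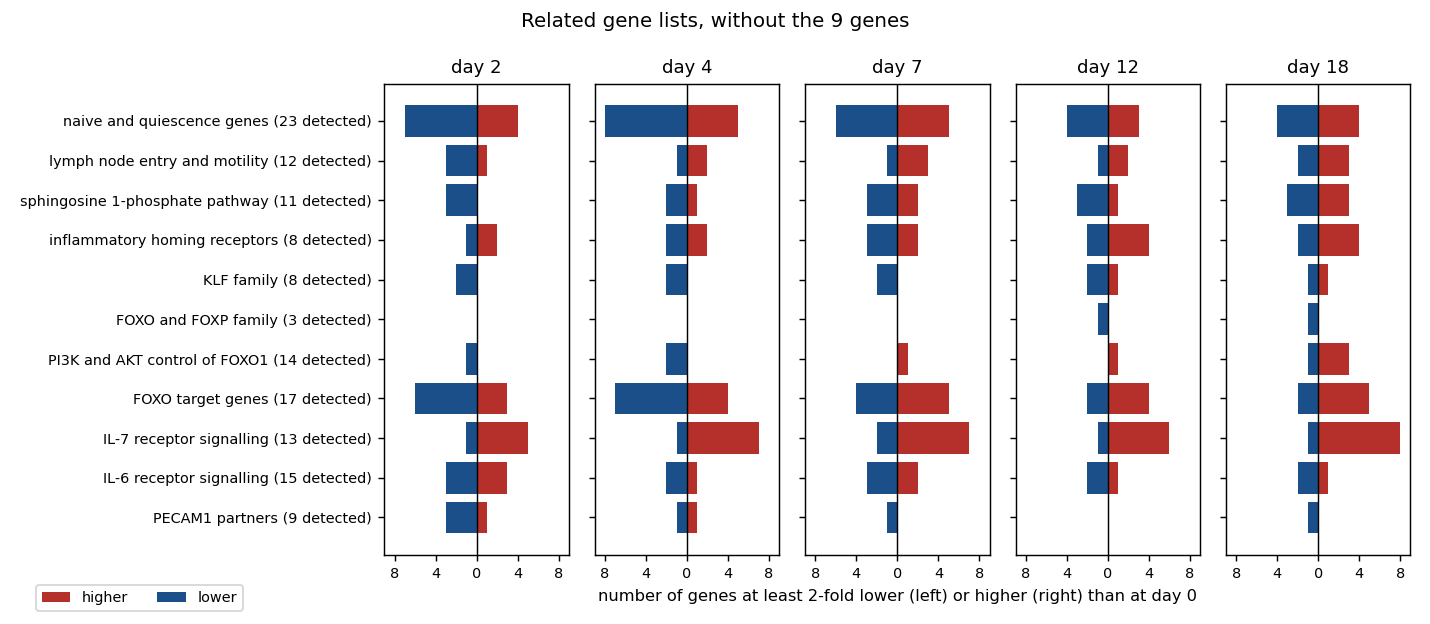
Number of genes of each of 11 related lists that were at least 2-fold lower (left, blue) or higher (right, red) than at day 0, 1 panel per activated day, with quantile normalization. The IL-7 receptor signalling list holds 8 higher genes and 1 lower gene at day 18, and the naive and quiescence list 8 lower and 5 higher at day 4.

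Within the KLF family, 8 other members were detected, and 2, 2, 2, 2 and 1 were lower and 0, 0, 0, 1 and 1 higher from day 2 to day 18. Klf1 is the erythroid KLF factor and is itself on the erythroid marker list. It was 47.6-fold lower at day 2 and at least 56.9-fold lower at day 18, without the return that Klf2 showed at days 12 and 18. Klf9, a factor induced by glucocorticoids, was 3.75-fold lower at day 2 and 2.50-fold lower at day 12. Klf7 was 2.26-fold and 2.53-fold higher at days 12 and 18, and with T cell identity scaling its differences were -0.20 and -0.04. Klf6 and Klf13, chosen after their values were seen as the family members that resting T cells express, stayed within 1.77-fold of day 0. In the FOXO and FOXP family 3 other genes were detected. Foxp3, the regulatory T cell factor, was 2.31-fold lower at day 12 and 2.12-fold lower at day 18, while Foxo3 and Foxp4 were under the limit on all 5 days.

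Upstream of FOXO1, the PI3K and AKT list had 14 detected genes, with 1, 2, 0, 0 and 1 lower and 0, 0, 1, 1 and 3 higher from day 2 to day 18. Pik3ip1, an inhibitor of PI3K, was at least 3.54-fold lower at day 2 and at least 3.45-fold lower at day 4, and 2.09-fold higher at day 18. Pik3cd, the PI3K catalytic subunit of leukocytes, was 2.34-fold and 2.29-fold higher at days 12 and 18, and Sgk1, an AKT-like kinase, 2.20-fold higher at day 7. With T cell identity scaling the higher values of Pik3ip1, Pik3cd and Sgk1 turned to -0.35, to -0.08 and -0.12, and to -0.36. At day 18 Pik3ip1 and Pik3cd were also under the limit with median scaling (0.37 and 0.60) and reference gene scaling (0.76 and 0.99). Skp2, a ubiquitin ligase subunit that targets FOXO1, was 2.38-fold lower at day 18.

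Downstream, all 17 listed FOXO target genes were detected, with 6, 7, 4, 2 and 2 lower and 3, 4, 5, 4 and 5 higher from day 2 to day 18. Gadd45a, a stress-induced growth arrest gene, was 5.03-fold to 8.64-fold lower on all 5 days. Ctla4, the inhibitory receptor, was higher on all 5 days, by 104-fold at day 2 and 14.6-fold at day 18. Bcl2, which protects T cells from death and is also raised by IL-7, was 2.09-fold higher at day 4 and 3.38-fold or more higher on days 7, 12 and 18, and with T cell identity scaling -0.21 at day 4 and 0.30 to 0.56 afterwards, all under the limit.

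Of the IL-7 receptor signalling genes, 13 were detected, with 1, 1, 2, 1 and 1 lower and 5, 7, 7, 6 and 8 higher from day 2 to day 18. With T cell identity scaling the higher genes numbered 3, 1, 1, 1 and 1, beside 3.9%, 1.9%, 1.5%, 1.2% and 1.5% of all genes under that scaling. Cish, an inhibitor induced by STAT5, was higher on all 5 days, by 9.42-fold at day 2 and 18.4-fold at day 7, under each scaling tried. Gfi1, a repressor of Il7r in mice, was 4.39-fold, 3.30-fold, 2.40-fold, 3.84-fold and 4.95-fold higher from day 2 to day 18, and with T cell identity scaling it stayed higher at day 2 alone, with 0.44, -0.39, 0.54 and 0.88 afterwards. Jak3 and Socs1, a kinase and an inhibitor of this receptor, were 2.11-fold to 4.74-fold and 2.21-fold to 4.36-fold higher, and with T cell identity scaling neither reached the limit on any day, Jak3 lying between -0.32 and 0.77 and Socs1 between 0.01 and 0.64.

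The IL-6 receptor signalling list had 15 detected genes, with 3, 2, 3, 2 and 2 lower and 3, 1, 2, 1 and 1 higher from day 2 to day 18. Il6st, the gp130 chain that pairs with the Il6ra product, was chosen after its values were seen. It was 2.63-fold lower at day 7, at least 2.68-fold at day 12 and at least 2.53-fold at day 18. Il11ra1, the IL-11 receptor chain, was 2.04-fold lower at day 2 and 8.30-fold lower at day 12. Jak1, the kinase shared with the IL-7 receptor, was 2.48-fold, at least 2.84-fold and 2.51-fold lower at days 2, 4 and 7. Ptpn2, a phosphatase of JAK and STAT proteins, was 2.39-fold, 2.84-fold and 2.29-fold higher at days 2, 4 and 7. With T cell identity scaling Ptpn2 lost all 3 of these calls (0.72, 0.20 and -0.45), and at day 2 it was also under the limit with median and reference gene scaling.

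Around Pecam1, the partner list had 9 detected genes, with 3, 1, 1, 0 and 1 lower and 1, 1, 0, 0 and 0 higher from day 2 to day 18. Cd177, a PECAM1 ligand on neutrophils, was not detected at day 0 and was at least 15.2-fold higher at day 2, the day on which the neutrophil marker sum peaked at 31615.1, and at least 2.43-fold higher at day 4, where T cell identity scaling gave 0.65, under the limit. The part of neutrophils in it was not tested. Ptpn6, the phosphatase SHP-1, was 2.25-fold lower at day 7 and 2.32-fold lower at day 18. Cd99l2 was 2.21-fold and 2.27-fold lower at days 2 and 4, and Cd47, the "do not eat me" signal, 2.38-fold lower at day 2.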

How the data were processed

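The 6 libraries were measured on Illumina bead arrays with biotin-labelled cRNA, 1 library per time point. The labels speak of a MouseRef-8 protocol, but the table lists 45281 probes. The authors deposited an intensity per probe, not normalized, and a detection p-value per probe, per the file headers; the sources used here do not say how the p-value arose. A second deposited table holds normalized intensity values (median 3.1, minimum -12.4) of unstated method. All 18 columns were used.

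Background correction and quantile normalization used limma's neqc (version 3.58.1, R 4.3.3), with normexp fitted from the detection p-values, an offset of 16 and log2. Counting used Python 3.11.15 with numpy 2.4.6, pandas 2.3.3 and scipy 1.17.1, figures used matplotlib 3.10.9, and the calling rule was run on simulated data. There every gene was detected and the noise was below the probe yardstick, so the rule for undetected signals was not tested. Of 30854 probe names, 16223 matched a RefSeq symbol and 5678 a synonym; 8926 stayed as in the file, and 27 were numbers or dates. No test was possible with 1 library per time point. The members, 12 gene lists and 10 marker lists were chosen with earlier results of these data known. Named were all members, up to 4 genes per list called on the most days (largest difference first), and the 3 nearest profiles per member; some genes that this rule names are not reported here. Alternatives were 3 other scalings, the mean of a gene's probes, a detection p below 0.05, an offset of 50, omitted background correction, the authors' normalized table and leaving out each activated day.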

Additional observations from a re-analysis of the deposited data

How the results depend on the processing

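The lower calls of Klf2 on all 5 days held under every alternative tried, and those of Il6ra under all but the mean of its probes, where 1 gene in place of 2 was lower on every activated day. The exchange of Il7r for Foxp1 among the lower genes between day 2 and day 4 depended on the scaling. Il7r was also lower at day 4 with reference gene scaling (-1.06) and T cell identity scaling (-2.04). Foxp1 was also lower at day 2 with median scaling (-1.01) and T cell identity scaling (-1.24). The higher calls were lost more often than the lower calls of Klf2 and Il6ra. They also rested on smaller differences, and the 3 other scalings move the activated arrays down, which favours lower calls by construction. At day 2 the higher calls numbered 1 in place of 2 with median scaling, reference gene scaling, an offset of 50 and the mean of probes. They numbered 0 with T cell identity scaling and without background correction. At day 4 the 1 higher gene, Foxo1, went to 0 with T cell identity, median and reference gene scaling, without background correction and with the mean of probes. Its difference reversed to -0.21 at day 2 and -0.012 at day 4 with the mean of probes, and to -0.12 at day 4 with T cell identity scaling. Between day 18 and day 2, the lower genes numbered 1 in place of 2 with the mean of probes, without background correction, with an offset of 50 and with reference gene scaling, and the higher genes 1 in place of 2 with T cell identity scaling and without background correction. T cell identity scaling raised the lower genes to 6, 5, 6, 6 and 7 from day 2 to day 18, beside 19.8%, 59.0%, 69.8%, 62.0% and 56.3% of all genes lower on these days under that scaling. By its construction it moves whole arrays: the median over all genes shifted by -0.45, -1.22, -1.58, -1.26 and -1.15, and undetected signals such as those of Klf3 moved with it. The share of lower among all calls was 51.3% to 54.6% with quantiles, 83.6% to 98.1% with T cell identity scaling, 60.2% to 84.6% with median scaling and 57.6% to 72.2% with reference genes. Over all genes 1072 were lower and 893 higher at day 2 with quantiles, 532 and 470 without background correction, and 2366 and 465 with T cell identity scaling. Median scaling shifted the median of all genes by -0.11 to -0.43, and reference gene scaling by -0.04 to -0.24. Of 122 counts recomputed, 98 stayed within 1.5 times, and of 320 single differences 236 moved by less than the probe yardstick. The sign changed in 23 of the 320, 13 of them with T cell identity scaling, and 3 of the 23 were differences that had reached the 2-fold limit. Leaving out any 1 activated day added no gene to the 2 lower and 0 higher on all remaining days, which is no sign of stability, since it could hardly remove a gene lower on all 5. With 1 library per time point no paired analysis was possible, because no replicates exist, and the number of arrays limits the precision. S1pr1, Klf3 and the dimmer probes of Il7r, Il6ra, Foxo1 and Foxp1 lie at or near the detection limit, so their differences are bounds or cannot be given.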

Other observations

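Set against each other over the 6 libraries, after each gene's own mean was subtracted, the detected genes fell far apart. Klf2 was the most distant, with root mean square differences of 1.58 log2 units (Foxp1) to 2.43 (Ccr7) from the other genes. Ccr7 and the brighter Foxo1 probe were the nearest pair (0.29), both highest at days 2 to 4. Il7r lay 0.72 from Pecam1, both lowest at day 2, and 1.39 from Il6ra. Klf3 was detected at day 0 alone, so its distances to the other members carry no meaning and are not given. These distances are dominated by the genes with the widest ranges, rest on 1 library per time point and carry no test.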
